A study of Homo sapiens with 12 samples.

Results

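The genes described here are the 36 aminoacyl-tRNA synthetase genes whose symbols were found in the deposited count table, out of 30017 symbols. They were picked out by symbol, in the older style of names without the digit 1, and no measured value served as a criterion. Earlier results of these data were known, however, when the list was chosen. The table held 20 cytosolic synthetases and 16 mitochondrial synthetases, whose names end in 2. All 36 had enough counts to be tested. Polyadenylated RNA was sequenced from THP-1 cells, a monocytic line derived from acute myeloid leukaemia, and the labels name the cells AML blasts from blood. Cells had been electroporated with Cas9, with or without a guide RNA for IRAK4, a kinase downstream of Toll-like receptors, and then diluted to single cells and expanded as clones. Wild-type and knockout cells were each given 50 nM CC-885 or DMSO, its solvent, for 12 h, which made 4 groups of 3 libraries. As the labels have it, the groups differed in genotype and treatment. They also differed in how many library names start with 51 or 52, a prefix the labels do not explain. CC-885 recruits GSPT1, a factor that ends translation at stop codons, to the cereblon ubiquitin ligase, which marks it for degradation. How many clones stand behind each genotype is not stated, so loss of IRAK4 and differences between clones cannot be told apart. Nothing says that replicates were separate cultures, and p-values therefore measure the spread between these libraries, which may be technical.

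Aminoacyl-tRNA synthetases join each amino acid to its matching transfer RNA, the charged form that the ribosome uses. Human cells keep separate sets for the cytosol and for the mitochondrion, all encoded in the nucleus, and the mitochondrial enzymes serve the ribosomes that make a few respiratory chain subunits. GARS and KARS each give both a cytosolic and a mitochondrial enzyme from a single gene, and by their names both were counted as cytosolic here. EPRS joins the glutamate and proline enzymes in one protein. When charging or translation falters, kinases that phosphorylate the initiation factor eIF2 favour translation of ATF4, a transcription factor known to bind C/EBP-ATF elements near many cytosolic synthetase genes.

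To describe where the letters of that element occur among the members, RefSeq promoter windows (GRCh38.p14, 250 bases before to 50 bases after the gene start) were searched for it on both strands. A window was found for 30 of the 36 genes, and DARS, LARS, VARS, YARS, AARS2 and VARS2 had none. The letters TGATGCAA occurred in 6 of 16 cytosolic genes (37.5%), in 0 of 14 mitochondrial genes and in 295 of 27305 genes with a window of this length (1.08%). The looser core TGATGNAAN, which contains those letters, occurred in 7 of 16 cytosolic genes (43.8%), in 1 of 14 mitochondrial genes (7.14%) and in 1215 of 27305 genes (4.45%). Each stretch below reads 5′ to 3′ on the strand of its gene. Capitals mark the core match, which appears as its reverse complement except in NARS, and GARS holds the core without the stricter letters.
AARS: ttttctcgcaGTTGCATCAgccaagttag
CARS: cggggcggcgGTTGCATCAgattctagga
IARS: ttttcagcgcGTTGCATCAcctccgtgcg
MARS: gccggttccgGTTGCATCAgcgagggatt
NARS: ctacgctctcTGATGCAACgccggaatcg
TARS: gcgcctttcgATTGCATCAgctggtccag
GARS: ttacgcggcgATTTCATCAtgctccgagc
The minus-strand stretches lie at chr16:70289676-70289704 for AARS, chr11:3057408-3057436 for CARS, chr9:92293693-92293721 for IARS and chr18:57621804-57621832 for NARS. The plus-strand stretches lie at chr12:57488053-57488081 for MARS, chr5:33440956-33440984 for TARS and chr7:30594834-30594862 for GARS. The match began 188 bases before the RefSeq start in AARS and within 34 bases of it in the other genes shown. A match is a description of letters and not evidence that a factor bound there.

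HARS and HARS2, the cytosolic and mitochondrial histidine enzymes, are transcribed away from each other, and 84 bases lie between their RefSeq starts. The stretch between them is shown because these neighbours responded differently to CC-885, and it held 0 core matches. It lies at chr5:140691371-140691454 and is written on the strand of HARS2.
HARS-HARS2: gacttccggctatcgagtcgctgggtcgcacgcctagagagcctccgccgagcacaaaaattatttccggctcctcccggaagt

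Library totals ranged from 46903984 to 56675539 counts, and single members from 143 counts in a library (VARS2) to 73410 counts (TARS). The 36 genes together took between 0.432% and 0.855% of a library's counts. IRAK4 transcripts stood at 50.9 to 53.9 CPM in wild type against 7.28 to 8.78 CPM in knockout under DMSO, and at 65.4 to 83.6 CPM and 29.6 to 31.7 CPM under CC-885, where CPM means counts scaled to library size with TMM factors. All 10 monocytic markers were present in each group, with summed levels of 3550 to 3670 CPM in wild type under DMSO, 1890 to 2040 CPM in wild type under CC-885, 7840 to 9680 CPM in knockout under DMSO and 3090 to 3260 CPM in knockout under CC-885. Of the lists for other cells, the 7 T and NK cell markers summed to at most 20.9 CPM, with CD3E and CD3G at 0 in every group. The 8 epithelial, stromal and endothelial markers summed to 268 to 303 CPM in wild type against 413 to 460 CPM in knockout with DMSO, and to at most 115 CPM with CC-885 in both, with COL1A2 at 0. These marker sums differed between treatments and genotypes, and their part in the results was not tested. Wild-type CC-885 replicate 3 stood apart from the other libraries of its group, since its chi-square per degree of freedom was 76.1 and 62.3 to each of them but 5.05 between them. It is also the only CC-885 library whose name starts with 52. The fit on names that start with 51 therefore leaves it out too, and these checks are not independent. Where leaving out this replicate changed a call, or moved a called value named here by over 1.5 times, both values are given. Values that passed the test in neither fit could also move with it, as for DARS and KARS in wild type, and most are given with all libraries only.

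In untreated wild-type cells, EPRS had the highest level per length of the cytosolic set, 95.9 ± 2.98 CPM per kb of merged exons (SD, n = 3). FARSA, the catalytic subunit of the phenylalanine enzyme, followed at 78.6 ± 2.74, TARS, the threonine enzyme, at 78.4 ± 1.07 and VARS, the valine enzyme, at 73.9 ± 4.45 CPM per kb, and these 3 neighbours in the order did not differ beyond their spread. CARS, the cysteine enzyme, was lowest at 3.81 ± 0.252 CPM per kb. Among mitochondrial genes IARS2, the isoleucine enzyme, led at 58.7 ± 0.982 CPM per kb, ahead of AARS2 at 19.3 ± 0.447 and RARS2 at 19.1 ± 0.293, which did not differ beyond their spread. VARS2 was lowest at 1.1 ± 0.0948 CPM per kb. Exon models merge every annotated isoform (GENCODE v29), so a gene with many rare isoforms, such as CARS at 10037 bases, reads low on this scale. After CC-885 the wild-type order changed, with TARS at 247 ± 11.1 and AARS, the alanine enzyme, at 169 ± 9.67 CPM per kb in the lead. IARS2 stayed first in its set in every group, at 29.6 ± 3.06 CPM per kb in wild type and 28.2 ± 0.372 in knockout under CC-885.

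The compartments moved apart under CC-885. Averaged over genes on the log2 scale and set against wild type under DMSO, the cytosolic set stood at 0.78 ± 0.02 (SD, n = 3 libraries) in wild type and 0.45 ± 0.01 in knockout under CC-885, while the mitochondrial set stood at -0.39 ± 0.01 and -0.56 ± 0.03. The cytosolic average minus the mitochondrial average was 1.18, 1.16 and 1.15 in the wild-type CC-885 libraries and 0.99, 1.03 and 1.01 in the knockout CC-885 libraries. With DMSO the same difference lay between -0.01 and 0.00 in wild type and was 0.06, 0.13 and 0.08 in knockout. No library under CC-885 overlapped any library under DMSO on this measure, in either genotype. Summed over its genes, the cytosolic set went from 4124 ± 102 to 7976 ± 94.4 CPM in wild type and from 3421 ± 117 to 5972 ± 45.8 CPM in knockout. The mitochondrial sum went from 828.3 ± 7.31 to 602.2 ± 1.04 CPM in wild type and from 779.2 ± 10.1 to 581.5 ± 7.62 CPM in knockout. In bulk RNA, a change in the share of cells and a change in RNA per cell cannot be told apart, and all levels are relative to the other transcripts of a library.

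**Figure D1:**
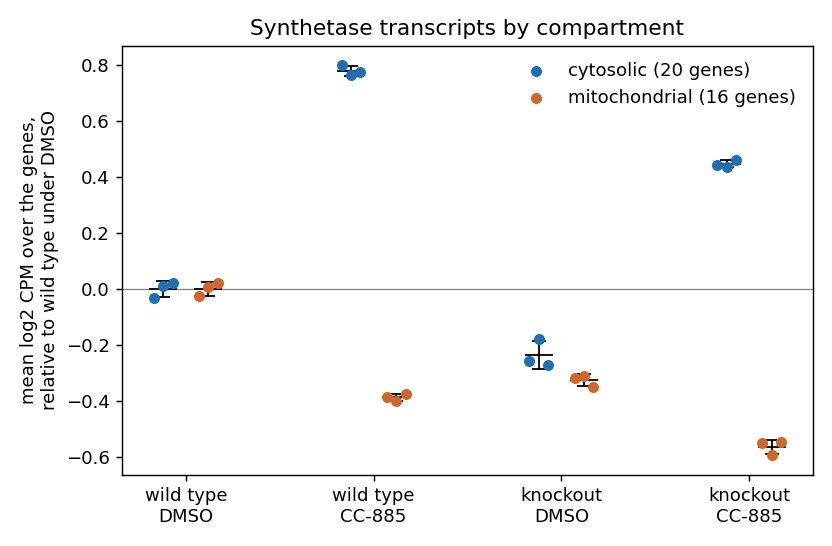
Mean log2 CPM over the 20 cytosolic and 16 mitochondrial synthetase genes in each library, relative to the mean of wild type under DMSO; points are libraries, and black bars give the mean and SD of 3 libraries. The cytosolic average is near 0.78 and 0.45 under CC-885 in wild type and knockout, while the mitochondrial average is near -0.39 and -0.56.

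In wild-type cells CC-885 raised most cytosolic synthetase transcripts, with CARS, WARS, GARS, AARS, MARS, TARS and YARS each more than doubled. Of the 20 genes, 13 rose, 4 fell and 3 did not pass the test (edgeR quasi-likelihood test, adjusted p under 0.05), when 35.7% of all 16010 genes tested were called higher and 36.6% lower. Their median log2 fold change was 0.57, against -0.03 over all genes. How many of all genes doubled was not counted. CARS read 40.9, 35.8 and 38.1 CPM with DMSO and 255, 248 and 266 CPM under CC-885. This was a rise of 6.7-fold (log2 2.75 ± 0.06, SE; adjusted p = 6.04e-15), the largest in either compartment. WARS, the tryptophan enzyme, which interferon also induces, read 108, 123 and 129 CPM with DMSO and 588, 573 and 489 CPM under CC-885. GARS, the glycine enzyme, went from 132, 147 and 146 CPM to 648, 619 and 585 CPM. In none of these genes did the treated libraries overlap the untreated ones. Here and below, most such genes were named for their calls. Separation of their libraries is therefore not further evidence, and its share over all genes was not counted. AARS read 205, 201 and 216 CPM with DMSO and 780, 792 and 711 CPM under CC-885. The log2 changes were 2.20 ± 0.08 for WARS, 2.12 ± 0.06 for GARS, 1.88 ± 0.06 for AARS, 1.76 ± 0.06 for MARS (methionine), 1.66 ± 0.07 for TARS and 1.63 ± 0.06 for YARS (tyrosine). Smaller rises were called for IARS (isoleucine, log2 0.84), SARS (serine, 0.77), EPRS (0.68), NARS (asparagine, 0.45), RARS (arginine, 0.36) and LARS (leucine, 0.18). That of LARS was lost with upper-quartile scaling (log2 0.11, adjusted p = 0.0924) and with no scaling factors (0.12, adjusted p = 0.074).

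Against that direction, HARS, FARSA, QARS and FARSB fell in the same cells. HARS read 89.2, 96.3 and 94.8 CPM with DMSO and 60.2, 56.1 and 56.7 CPM under CC-885, a log2 change of -0.70 ± 0.06 (edgeR adjusted p = 1.24e-08). Both subunits of the cytosolic phenylalanine enzyme were lower: FARSA went from 184, 195 and 196 CPM to 135, 132 and 143 CPM (log2 -0.49 ± 0.06), and FARSB from 98.2, 102 and 98.8 CPM to 84.1, 81.4 and 81 CPM (-0.28 ± 0.05). QARS, the glutamine enzyme, read 224, 196 and 202 CPM with DMSO and 177, 168 and 136 CPM under CC-885 (-0.37 ± 0.08). The treated libraries lay below the untreated ones in each of the 4 genes, which were named because they fell. For DARS (aspartate, log2 0.08), VARS (0.10) and KARS (lysine, -0.04) the change did not pass the test. DARS read 119, 122 and 116 CPM with DMSO and 112, 119 and 145 CPM under CC-885. KARS went from 264, 284 and 293 CPM to 258, 258 and 303 CPM. In both genes wild-type CC-885 replicate 3 stood highest, so these small changes depended on it. VARS read 420, 454 and 474 CPM with DMSO and 484, 483 and 475 CPM under CC-885, and the ranges lay next to each other without overlap.

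Mitochondrial synthetase transcripts mostly moved the other way in wild type. Of the 16 genes, 9 fell, 2 rose and 5 did not pass the test, when 36.6% of all genes were called lower and 35.7% higher. Their median log2 fold change was -0.44. The deepest falls were those of CARS2, PARS2 and IARS2, which charge cysteine, proline and isoleucine in the organelle. CARS2 read 71.9, 81.3 and 78.8 CPM with DMSO and 35.7, 35.1 and 31.7 CPM under CC-885, a log2 change of -1.18 ± 0.07 (edgeR adjusted p = 4.08e-10). PARS2, among the least abundant members, went from 10.4, 9.57 and 10.4 CPM to 5.09, 5.07 and 4.43 CPM (-1.06 ± 0.10). IARS2 went from 249, 241 and 243 CPM to 131, 130 and 108 CPM (-0.99 ± 0.07). For each of the 3 genes the treated libraries lay well under the untreated ones. VARS2 (-0.91), EARS2 (glutamate, -0.87), MARS2 (methionine, -0.85), YARS2 (tyrosine, -0.59), AARS2 (alanine, -0.53) and NARS2 (asparagine, -0.35) were also called lower.

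The mitochondrial genes that rose in wild type were WARS2 and TARS2. WARS2, the tryptophan enzyme, read 21.8, 22.8 and 22.3 CPM with DMSO and 35.7, 37.1 and 44 CPM under CC-885, with replicate 3 the highest (log2 0.80 ± 0.08, edgeR adjusted p = 1.48e-07, and 0.70 ± 0.07 without that replicate). TARS2, the threonine enzyme, read 57.3, 52.2 and 53.9 CPM with DMSO and 63.2, 65.4 and 62.7 CPM under CC-885 (0.23 ± 0.06). Its call was lost with upper-quartile scaling (0.16, adjusted p = 0.0511) and among libraries whose names start with 51 (0.15, adjusted p = 0.0939). LARS2 (leucine), SARS2 (serine), HARS2, FARS2 (phenylalanine) and RARS2 (arginine) did not pass the test, at -0.03, -0.10, 0.01, 0.24 and 0.05. SARS2 was called lower with upper-quartile scaling (-0.17, adjusted p = 0.0458). For FARS2 and RARS2 the value moved with the library that stands apart. FARS2 read 12.4, 11.3 and 16.8 CPM under CC-885 against 11, 12 and 11.3 CPM under DMSO, with the third library far above the rest. Without wild-type CC-885 replicate 3 the FARS2 change was 0.05 (adjusted p = 0.627), and it was called higher without replicate 2 of that group (0.35, adjusted p = 0.0151), with the number in the library names as a block (0.30, adjusted p = 0.0453) and with the prefix of the names as a covariate (0.30, adjusted p = 0.0114). RARS2 read 44.3, 43.6 and 63 CPM under CC-885 against 49.4, 48.2 and 48 CPM under DMSO. Without wild-type CC-885 replicate 3 the RARS2 change turned to -0.14 and was called lower (adjusted p = 0.0379).

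**Figure D2:**
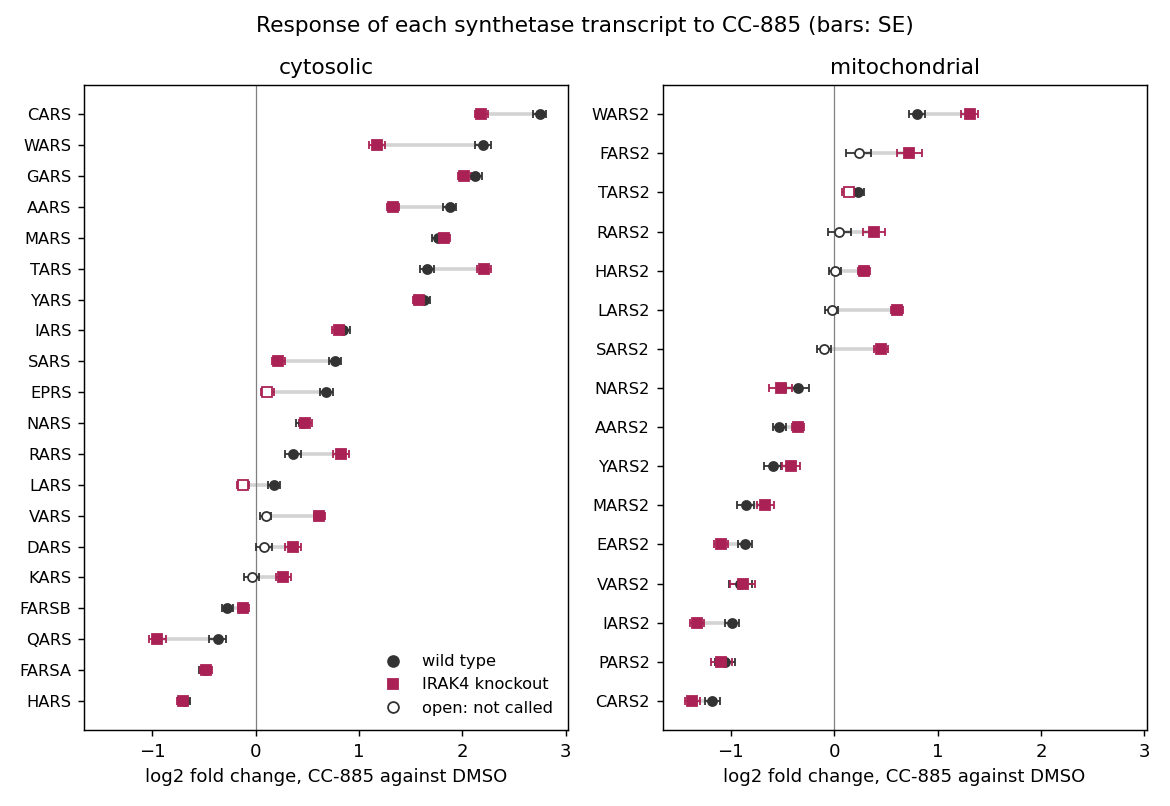
Log2 fold change of each synthetase transcript with CC-885 against DMSO in wild type (black circles) and IRAK4 knockout (red squares), with SE bars, ordered by the wild-type value; open symbols did not pass an adjusted p of 0.05. Cytosolic genes reach 2.75 (CARS), while mitochondrial genes extend to -1.37 (CARS2 in knockout).

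In knockout cells CC-885 raised 14 cytosolic synthetases and lowered 4, with 2 that did not pass the test, beside 38.9% of all genes called higher and 40.0% lower. The median log2 fold change was 0.55, and the median over all genes was -0.03. TARS and CARS had the largest rises, which did not differ beyond their SE. TARS went from 141, 166 and 143 CPM to 705, 678 and 700 CPM (log2 2.21 ± 0.07, edgeR adjusted p = 5.93e-14). CARS went from 47, 46.3 and 44.1 CPM to 199, 211 and 214 CPM (2.18 ± 0.06). The libraries of the 2 treatments were again far apart in both genes. GARS rose by 2.02, MARS by 1.82, YARS by 1.58, AARS by 1.33 and WARS by 1.17 on the log2 scale. RARS (0.83), IARS (0.80), VARS (0.62), NARS (0.48), DARS (0.36), KARS (0.27) and SARS (0.22) were called higher as well. With upper-quartile scaling, which lowered the median of all genes in this comparison by 0.15, KARS stood at 0.12 (adjusted p = 0.0961) and SARS at 0.07 (adjusted p = 0.333), and SARS also lost its call with no scaling factors (0.12, adjusted p = 0.099). HARS (-0.71), FARSA (-0.48), QARS (-0.95) and FARSB (-0.12) were called lower, as in wild type. FARSB lost its call in 5 of the 6 fits that leave out a knockout library (adjusted p from 0.0801 to 0.154) and in 4 of the 10 other alternatives. EPRS (0.11) and LARS (-0.12) did not pass the test. LARS was called lower with upper-quartile scaling (-0.27, adjusted p = 0.000411), no scaling factors (-0.22, adjusted p = 0.00328), no filter (-0.18, adjusted p = 0.0152) and the libraries whose names start with 51 (-0.16, adjusted p = 0.016), and in 2 of the 6 fits that leave out a library.

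The knockout response of the mitochondrial set comprised 9 falls, 6 rises and 1 change that did not pass the test, with a median of -0.39. Over all genes 40.0% were called lower and 38.9% higher, so the share of rises (37.5%) was near that of all genes. CARS2 went from 61.1, 58.9 and 56.6 CPM to 23.6, 21.2 and 23.5 CPM (log2 -1.37 ± 0.07, edgeR adjusted p = 4.25e-11), and IARS2 from 281, 306 and 294 CPM to 116, 117 and 119 CPM (-1.32 ± 0.07). PARS2 and EARS2 both stood at -1.09, VARS2 at -0.89, MARS2 at -0.67, NARS2 at -0.52, YARS2 at -0.42 and AARS2 at -0.35. The 9 genes that fell in knockout were the 9 that fell in wild type, and the like overlap was not counted over all genes. WARS2 rose from 13.9, 13.5 and 13.2 CPM to 32.2, 34.7 and 34.1 CPM (1.31 ± 0.08). FARS2 (0.73), LARS2 (0.61), SARS2 (0.45), RARS2 (0.38) and HARS2 (0.29) were called higher in knockout, while TARS2 (0.14) did not pass the test. The prefix 51 is carried by 8 libraries, of which 1 is wild type with DMSO, and no knockout CC-885 library carries 52. A fit on those 8 moved log2 changes of members by up to 0.271. Among those 8, 14 cytosolic genes rose and 4 fell in each genotype, with LARS in place of FARSB among the knockout falls, and 1 mitochondrial gene rose and 9 fell in wild type, with 6 and 9 in knockout.

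Across genotypes, 11 cytosolic genes were called higher in both, namely AARS, CARS, GARS, IARS, MARS, NARS, RARS, SARS, TARS, WARS and YARS, and 4 were called lower in both. How many of all tested genes were called the same way in both genotypes was not counted, so these overlaps stand without a background. In this fit no synthetase was called in opposite directions. LARS was called higher in wild type and lower in knockout with no filter (0.20 and -0.18) and among libraries whose names start with 51 (0.21 and -0.16), and SARS2 lower in wild type and higher in knockout with upper-quartile scaling (-0.17 and 0.31). Whether the sizes differed was asked by the interaction, the knockout response minus the wild-type response, in which 17.9% of all genes were called higher and 16.8% lower. Of the 20 cytosolic genes 4 were called higher in it and 7 lower, and of the 16 mitochondrial genes 5 were called higher and 1 lower. The medians were -0.03 and 0.18, against -0.01 over all genes. Without wild-type DMSO replicate 1 the cytosolic median was 0.02.

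The knockout response was smaller for WARS, AARS, CARS, SARS, EPRS and LARS. WARS read 588, 573 and 489 CPM in wild type against 270, 269 and 278 CPM in knockout under CC-885, from nearly equal untreated levels (123, 126 and 113 CPM in knockout), an interaction of -1.03 ± 0.11 (edgeR adjusted p = 6.73e-06). Its untreated log2 difference was 0.01 with all libraries. Among libraries whose names start with 51, of which 1 is wild type with DMSO, it was 0.20. AARS (-0.55 ± 0.08) and CARS (-0.56 ± 0.08) still rose in knockout, as did SARS (-0.55 ± 0.08). EPRS, the bifunctional enzyme, read 832, 821 and 863 CPM in wild type against 571, 549 and 543 CPM in knockout under CC-885 (-0.57 ± 0.09), and LARS stood at -0.30 ± 0.08. QARS fell further in knockout, from 214, 203 and 196 CPM to 103, 106 and 108 CPM (-0.58 ± 0.12). Under CC-885 the knockout libraries of WARS, EPRS and QARS all lay below the wild-type libraries.

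A larger or more positive knockout response was called for TARS (0.55 ± 0.09), VARS (0.52 ± 0.08), RARS (0.46 ± 0.10) and KARS (0.31 ± 0.10). All 4 genes were called lower in untreated knockout cells than in untreated wild type, and the KARS call there was lost with upper-quartile scaling. Of the genes with a negative interaction, LARS (-0.40) and SARS (-0.36) were called lower there too and CARS higher, while WARS, AARS, EPRS and QARS were not called. The DMSO libraries enter both comparisons, so these calls are not independent. VARS read 356, 338 and 341 CPM with DMSO and 522, 529 and 535 CPM under CC-885 in knockout, so its treated libraries stood clear of the untreated ones in that genotype. The KARS interaction lost its call in 8 of the 12 fits that leave out a library (adjusted p from 0.0529 to 0.07), with upper-quartile scaling (0.23, adjusted p = 0.0609) and with no filter (0.22, adjusted p = 0.104).

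In the mitochondrial set LARS2 had the largest interaction, 0.63 ± 0.08 (edgeR adjusted p = 4.18e-05). It read 52, 55 and 55.2 CPM with DMSO and 52.2, 53.2 and 54 CPM under CC-885 in wild type, and 41.1, 38.4 and 41.8 CPM and then 59.9, 60.7 and 63.9 CPM in knockout. The treatments overlapped in wild type and were apart in knockout. SARS2 went from 29.2, 28.8 and 30 CPM to 28.1, 28.2 and 25.9 CPM in wild type, a change that did not pass the test, and from 21.3, 19.8 and 20.1 CPM to 27.2, 27.9 and 28.8 CPM in knockout (interaction 0.55 ± 0.09). WARS2 (0.51 ± 0.11), FARS2 (0.49 ± 0.17) and HARS2 (0.28 ± 0.08) were called higher, and IARS2 lower (-0.33 ± 0.09). HARS2 overlapped between treatments in wild type, with 48.5, 48.3 and 46.9 CPM before and 49.5, 47.8 and 47.4 CPM after, and went from 39.4, 39.5 and 36.1 CPM to 46.4, 47.8 and 46.6 CPM in knockout. Its call ended without knockout CC-885 replicate 2 (0.26, adjusted p = 0.0506), with upper-quartile scaling (0.20, adjusted p = 0.093), with no filter (0.20, adjusted p = 0.157), with the number in the library names as a block (0.29, adjusted p = 0.053) and among libraries whose names start with 51 (0.25, adjusted p = 0.0572). The FARS2 interaction lost its call in 8 of 12 fits that leave out a library (adjusted p from 0.0595 to 0.0868), with upper-quartile scaling (0.42, adjusted p = 0.0552) and with no filter (0.41, adjusted p = 0.077). Without wild-type CC-885 replicate 3 the FARS2 interaction was larger, at 0.68 ± 0.12 (adjusted p = 0.000158). For DARS and RARS2 the interaction of 0.28 and 0.33 did not pass the test, but without wild-type CC-885 replicate 3 it was 0.40 (adjusted p = 0.000306) and 0.53 (adjusted p = 3.22e-05), and that of CARS2 went from -0.19 to -0.24 (adjusted p = 0.04). EARS2 (-0.23) did not pass the test either, but was called lower in 4 of 9 alternatives other than left-out libraries.

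**Figure D3:**
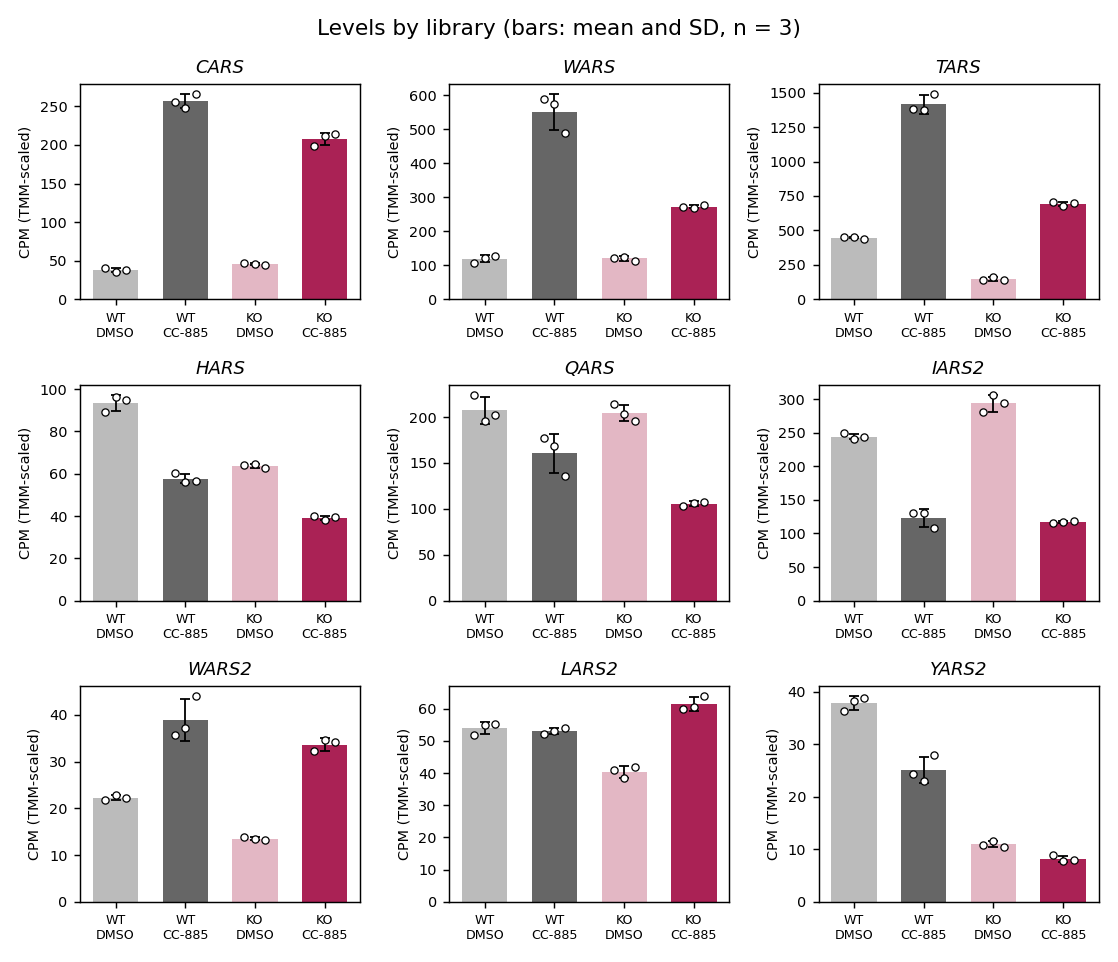
CPM of 9 synthetase genes by library (points), with bars for the mean and SD of 3 libraries, in wild type (WT, grey) and IRAK4 knockout (KO, red) under DMSO and CC-885. WARS reaches 489 to 588 CPM in treated wild type and 269 to 278 CPM in treated knockout, while LARS2 in knockout goes from 38.4 to 41.8 CPM up to 59.9 to 63.9 CPM.

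Setting the enzymes for one amino acid side by side gave 16 pairs, counting EPRS with both EARS2 and PARS2. In wild type the cytosolic change was the more positive in 14 of 16 pairs, with a median difference of 1.42 on the log2 scale. CARS and CARS2 were farthest apart, at 2.75 and -1.18, followed by MARS and MARS2 at 1.76 and -0.85, AARS and AARS2 at 1.88 and -0.53, and YARS and YARS2 at 1.63 and -0.59. The exceptions were FARSA with FARS2 (-0.49 and 0.24) and HARS with HARS2 (-0.70 and 0.01). In knockout 11 of 16 pairs had the more positive cytosolic change, with a median difference of 1.20. LARS (-0.12) with LARS2 (0.61), SARS (0.22) with SARS2 (0.45) and WARS (1.17) with WARS2 (1.31) joined the earlier exceptions there. WARS and WARS2 lay close, each with an SE of 0.08, and differences within pairs were not tested. In GENCODE v29, whose models were merged over all isoforms, HARS and HARS2 share 437 exon bases on opposite strands, and the strand setting of the counting is not given in the sources used here, so reads in that stretch cannot be assigned to one of them. For the same reason the counts of SARS2, which shares 349 exon bases (10.8% of its own) with MRPS12 on the opposite strand, are uncertain. On the same strand, VARS2 shares 1858 exon bases (22.0%) with GTF2H4 and HARS2 shares 152 (4.07%) with ZMAT2. The counts of VARS2 and HARS2 are therefore uncertain whatever the strand setting.

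DARS, EPRS, IARS, KARS, LARS, MARS, QARS and RARS sit together in the multi-synthetase complex, a large assembly held by scaffold proteins. In wild type, where 35.7% of all genes were called higher and 36.6% lower, 5 of these 8 genes rose and 1 fell, with a median log2 change of 0.27, and only MARS at least doubled. Of the 12 cytosolic genes outside the complex, 8 rose and 3 fell, with a median of 1.20, and 6 at least doubled. The knockout medians were 0.31 inside and 0.89 outside. Synthetases also fall into 2 classes by the fold of their catalytic domain, and EPRS was counted in class I for its glutamate domain. Among cytosolic genes, class I had 8 of 10 called higher in wild type (median 0.76) and class II 5 of 10 (median 0.27), and in knockout 7 of 10 in each class were called higher. Among mitochondrial genes, class I had 6 of 9 and class II 3 of 7 called lower in wild type, with medians of -0.85 and -0.10. The shares over all genes were 35.7% higher and 36.6% lower in wild type, and 38.9% and 40.0% in knockout. The share of all genes that at least doubled was not counted. These groupings were described and not tested against each other.

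Without treatment, knockout cells had lower levels of many synthetases than wild-type cells. Of the 20 cytosolic genes 9 were lower and 1 higher, and of the 16 mitochondrial genes 9 were lower and 1 higher, when 28.4% of all genes were called lower and 21.3% higher. The medians were -0.13 and -0.31, against -0.06 over all genes, and with upper-quartile scaling, which raised the median of all genes by 0.12, they were -0.01 and -0.19. TARS and YARS2 stood far below the others. TARS read 452, 451 and 441 CPM in wild type against 141, 166 and 143 CPM in knockout, a log2 difference of -1.58 ± 0.07 (edgeR adjusted p = 4.36e-11). YARS2 read 36.3, 38.2 and 38.9 CPM in wild type against 10.9, 11.5 and 10.4 CPM in knockout (-1.79 ± 0.09, adjusted p = 1.9e-10). The ranges were well apart in both genes. WARS2 (-0.72), VARS2 (-0.61), HARS (-0.55), SARS2 (-0.53), RARS (-0.51), MARS2 (-0.45), LARS2 (-0.42), LARS (-0.40), CARS2 (-0.39), NARS (-0.39), VARS (-0.38), SARS (-0.36), HARS2 (-0.32), FARS2 (-0.30), KARS (-0.27) and MARS (-0.21) were lower by less. The FARS2 call (adjusted p = 0.0485) was lost in each of the 6 fits that leave out a library and in 8 of the 10 other alternatives, DESeq2 among them (-0.28, adjusted p = 0.0693). MARS lost its call without knockout DMSO replicate 3 (-0.14, adjusted p = 0.0504). MARS lost it too in 5 of the 10 other alternatives, upper-quartile scaling among them (-0.08, adjusted p = 0.321), which also ended the call of KARS (-0.15, adjusted p = 0.0654). TARS2 (0.13), not called here, was called higher in 5 of those 10. CARS (0.26 ± 0.06) and IARS2 (0.26 ± 0.07) were higher in knockout, and CARS stood at 0.18 (adjusted p = 0.0667) among libraries whose names start with 51.

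The genes around TARS and YARS2 were lower in knockout too. TARS lies at chr5:33440696-33469539 on the plus strand (GRCh38, GENCODE v29), and of the 16 other genes tested whose starts fall within 2 Mb of its own, 15 were called lower, with a median log2 difference of -1.32. They included GOLPH3 (-1.33), DNAJC21 (-1.5), RAD1 (-1.34) and DROSHA (-1.24), which act in Golgi trafficking, ribosome assembly, the DNA damage checkpoint and microRNA processing. YARS2 lies at chr12:32727490-32755902 on the minus strand, 11 Mb from the edited IRAK4 gene. Of the 12 genes within 2 Mb of its start, 10 were called lower and 1 higher (PKP2, 0.98), with a median of -1.42. DNM1L, which drives mitochondrial fission, stood at -1.59 and DENND5B at -1.46. The next lowest neighbour median, over 5 genes, was that of LARS, at -0.50 beside its own -0.40. Around GARS, 10 of 18 genes were called higher, with a median of 1.00, while GARS itself stood at -0.14 and did not pass the test, though it was called lower in 2 of the 6 fits that leave out a library. Positions were known for 13948 of the tested symbols, and copy number was not analysed here.

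**Figure D4:**
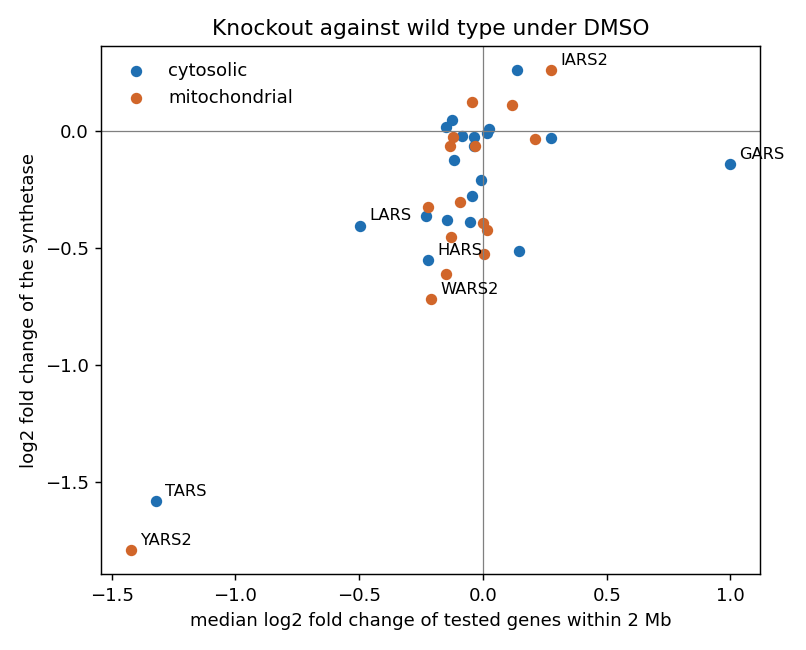
Log2 fold change of each synthetase in knockout against wild type under DMSO (vertical axis) plotted against the median log2 fold change of the other tested genes within 2 Mb of its start (horizontal axis); each point is a gene, blue cytosolic and orange mitochondrial. TARS and YARS2 lie at the lower left with neighbour medians of -1.32 and -1.42, and GARS lies at the right with 1.00.

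Under CC-885 YARS2, TARS, WARS and SARS were the synthetases furthest below wild type in knockout. Knockout was lower than wild type in 12 cytosolic genes and higher in 3, and lower in 6 mitochondrial genes and higher in 3, when 30.8% of all genes were called lower and 27.8% higher. The medians were -0.27 and -0.06, against -0.02 over all genes. YARS2 (-1.61 ± 0.09), TARS (-1.02 ± 0.06), WARS (-1.01 ± 0.08), SARS (-0.91 ± 0.06), LARS (-0.71 ± 0.06), QARS (-0.61 ± 0.08) and EPRS (-0.60 ± 0.06) were lower by the most. YARS2 read 24.3, 23 and 27.9 CPM in wild type against 8.84, 7.7 and 8.02 CPM in knockout, and TARS read 1380, 1370 and 1490 CPM against 705, 678 and 700 CPM. Each of these pairs of ranges was well separated. YARS, by contrast, read 486, 470 and 437 CPM in wild type against 466, 454 and 473 CPM in knockout, with a log2 difference of 0.00 ± 0.06 that did not pass the test. LARS2 was higher in knockout (0.21 ± 0.06). The other higher calls, DARS (0.22), FARSB (0.15), VARS (0.14), AARS2 (0.15) and RARS2 (0.30), each lost their call in at least 3 of the 6 fits that leave out a library. WARS2 (-0.21), MARS2 (-0.26) and MARS (-0.15) lost theirs in 3, 1 and 5 of those fits. Without wild-type CC-885 replicate 3, RARS2 stood at 0.49 (adjusted p = 7.3e-07) and DARS at 0.34 (adjusted p = 3.73e-05), while WARS2 stood at -0.11 (adjusted p = 0.15), and FARS2, not called with all libraries (0.19), stood at 0.37 (adjusted p = 0.00123). VARS (0.13, adjusted p = 0.0587) and AARS2 (0.12, adjusted p = 0.0812) lost their call without it, and IARS2 (-0.07 with all libraries) was called lower (-0.15, adjusted p = 0.0172).

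The 6 cytosolic genes with the letters TGATGCAA in their window, shown above, were all called higher with CC-885 in both genotypes, when 35.7% and 38.9% of all genes were. Of the 81 other tested genes with these letters that matched a RefSeq window by symbol, 39 (48.1%) were called higher in each genotype. Among those 81, 17 (21.0%) were called lower in wild type and 27 (33.3%) in knockout. Log2 changes of the 6 cytosolic synthetases ran from 0.45 to 2.75 in wild type, with a median of 1.71. In knockout they ran from 0.48 to 2.21, with a median of 1.57. Of the 10 cytosolic genes whose window lacked the letters, 5 were called higher and 4 lower in each genotype, with medians of 0.16 and 0.17. WARS and GARS rose by more than 4-fold in wild type without the exact letters, and HARS, FARSA, FARSB and QARS, which fell, held neither form. In the mitochondrial set only YARS2, which fell, held the looser core. MARS shares 355 exon bases with DDIT3, a gene that rose by 5.07 on the log2 scale in wild type, and 519 exon bases with ARHGAP9. Both genes lie on the opposite strand, and the share of MARS reads from those stretches is not known.

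Partners of tRNA charging were listed for each compartment. In the cytosol, 8 of 9 partners were tested, 4 rose and 1 fell in wild type, and 5 rose and 2 fell in knockout, beside 35.7% higher and 36.6% lower over all genes in wild type and 38.9% and 40.0% in knockout. XPOT, which exports tRNA from the nucleus, read 166, 183 and 181 CPM with DMSO and 508, 487 and 505 CPM under CC-885 in wild type (log2 1.5 ± 0.06) and rose by 1.42 in knockout. SEPSECS and PSTK, which make selenocysteine on its tRNA, rose by 1.52 and 1.02 in wild type and by 1.26 and 1.28 in knockout. AIMP1, a scaffold of the multi-synthetase complex, was called higher in both (0.53 and 1.01), but in wild type its libraries read 102, 101 and 172 CPM under CC-885, the highest being replicate 3, without which its wild-type change was 0.22 (adjusted p = 0.00591). DTD1, which removes D-amino acids from tRNA, fell by 0.32 and 0.18. EEF1E1, another scaffold of the complex, had the largest change on the cytosolic list, from 3.3, 3.18 and 4.73 CPM to 0.7, 0.877 and 1.2 CPM in knockout (-2.02 ± 0.38, adjusted p = 0.000346). In wild type it stood at -0.69 and did not pass the test, and at -1.25 (adjusted p = 4.53e-05) without CC-885 replicate 3. On the mitochondrial list 3 of 8 partners rose and 3 fell in wild type, and 4 rose and 2 fell in knockout, shares close to those over all genes in wild type. TRNT1, listed there though it adds the CCA end to tRNAs in general, rose by 1.04 and 1.80. MTO1, a tRNA modifying factor, rose by 0.52 and 1.11. GTPBP3, which works with MTO1, went from 20.1, 20.2 and 21 CPM to 7.65, 9.37 and 7.93 CPM in wild type and from 22, 18.3 and 18.1 CPM to 3.89, 4.15 and 4.14 CPM in knockout. The libraries of the 2 treatments lay apart in both genotypes.

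Genes of the amino acid stress response rose in the same libraries. Of the 10 listed, 9 rose and 1 fell in wild type (median log2 change 2.65), and 7 rose and 2 fell in knockout (median 2.30), when 35.7% and 38.9% of all genes were called higher. ATF4 rose by 2.53 in wild type and 2.87 in knockout, while its known targets ASNS (2.78 and 2.26), TRIB3 (3.93 and 2.34) and CHAC1 (5.76 and 2.57) rose less in knockout. In the interaction 8 of the 10 were called lower and 1, ATF4, higher (0.34 ± 0.12, edgeR adjusted p = 0.0355). PSAT1, of serine synthesis, rose by 1.30 in wild type and fell by 0.27 in knockout. EIF2AK4, the kinase that senses uncharged tRNA, was lower with CC-885 in both genotypes (-0.30 and -0.44).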

How the data were processed

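Per the labels' protocols, RNA was selected by polyA and sequenced as paired-end reads from TruSeq libraries. The submitters' processing notes name featureCounts 1.5.2, HISAT2 2.0.5, FastQC 0.11.2 and the build GRCh38. The labels' extraction protocol names the mouse build mm10 instead, but the gene symbols are human. How strand and reads with several matches were handled is not given in the sources used here. All 12 titles give THP1, and this was followed where the cell-line tag carries a running number.

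The authors deposited read counts for each gene symbol without normalizing them. Counts were filtered with filterByExpr by group, which left 16010 symbols, and scaled by TMM factors. All 12 libraries entered 1 robust quasi-likelihood fit in edgeR 4.0.16 (R 4.3.3), with a coefficient for each group and 5 contrasts. Benjamini-Hochberg adjustment ran over every tested gene, and calls required an adjusted p under 0.05. Standard errors came from the F statistic. The fit was checked on simulated counts. Levels are CPM with TMM scaling, and levels per kb use merged exons of GENCODE v29. SDs and SEs cover the spread between libraries, and intervals of single counts were not used.

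The members and the lists (complex, fold class, pairs, partners, stress response, cell markers) were chosen with earlier results of these data known, and 1 gene of the partner list is not reported here. Values by library were given for the members with the 4 largest rises and 3 largest falls with CC-885 in wild type and the largest differences between genotypes, and for those moving against the majority of their compartment. Other genes named beside them, such as EPRS, RARS and the genes around TARS and YARS2, were picked after their values were seen. Alternatives were RLE, upper-quartile and no scaling factors, no filter, DESeq2 1.42.0, only the groups compared, blocks by replicate number, the 2-digit prefix of the library names as a covariate or with prefix 51 alone, and each library left out.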

Additional observations from a re-analysis of the deposited data

Results flagged for a closer look

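The interaction tested whether the response to CC-885 differed between genotypes, and 17 of the 36 synthetases passed it (edgeR, adjusted p under 0.05), which is why they are listed here with the knockout response minus the wild-type response on the log2 scale. Over all genes, 17.9% were called higher in the interaction and 16.8% lower. In the cytosolic set the difference was -1.03 for WARS, -0.58 for QARS, -0.57 for EPRS, -0.56 for CARS, -0.55 for SARS, -0.55 for AARS and -0.30 for LARS. It was 0.55 for TARS, 0.52 for VARS, 0.46 for RARS and 0.31 for KARS. In the mitochondrial set it was 0.63 for LARS2, 0.55 for SARS2, 0.51 for WARS2, 0.49 for FARS2, 0.28 for HARS2 and -0.33 for IARS2. The values of KARS, FARS2 and HARS2 lost their call in some of the fits that leave out a library. That of FARS2 was larger, at 0.68, without wild-type CC-885 replicate 3.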

How the results depend on the processing

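Replicate numbers in the titles did not pair the libraries (correlation of deviations with the same number 0.02 in the median, -0.03 to 0.23 over 18 pairs). With a replicate block by title number the cytosolic counts in wild type stayed at 13 higher and 4 lower, the knockout count of falls became 3 as FARSB lost its call (-0.12, adjusted p = 0.076), VARS (0.14, adjusted p = 0.0646) and AARS2 (0.15, adjusted p = 0.054) lost theirs between genotypes under CC-885, and no log2 change of a member moved by more than 0.0147. With a replicate block by library-name number the HARS2 interaction lost its call (0.287, adjusted p = 0.053). With the prefix 51 alone, cytosolic counts were 14 higher and 4 lower in wild type, and 14 and 4 in knockout.

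The counts in the following sentences moved by more than 1.5 times, and the cause was not tested beyond what each setting removes. Mitochondrial rises in wild type were 1 with upper-quartile scaling and with prefix 51 alone. Between genotypes under DMSO, cytosolic genes higher were 2 with upper-quartile scaling, and mitochondrial genes higher were 2 with upper-quartile scaling, library size alone, no filter, DESeq2 and only the groups compared, and 1 to 2 with a library left out. Under CC-885, cytosolic genes higher in knockout were 1 with no filter and with a replicate block by library-name number, and 0 to 2 with a library left out, and mitochondrial genes higher were 1 with only the groups compared and 1 to 3 with a library left out. In the interaction, mitochondrial genes higher were 3 with upper-quartile scaling and with no filter, and 3 to 6 with a library left out, and mitochondrial genes lower were 2 with upper-quartile scaling, library size alone, no filter, the prefix as covariate and prefix 51 alone, and 1 to 2 with a library left out. Values that turned sign with a call in either fit, or a compartment median by more than the spread of libraries, were RARS2 in wild type (-0.14 without wild-type CC-885 replicate 3) and the cytosolic median of the interaction (0.0241 without wild-type DMSO replicate 1, in a range from -0.0557 to 0.0241 with a library left out). Of 3060 values of single members under the alternatives, 2773 kept direction and side of the threshold, 114 lost a call, 44 gained one and 129 turned sign, of which 128 were called in neither fit and none was over 0.142 in size in the reported fit. With a library left out the group of 2 was fitted with the spread of all groups. The interaction was not run with only the groups compared, since it needs all 4. At the lowest counts, VARS2 with 143 counts in a library, depth limits the precision most.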
